A study of Mus musculus with 6 samples.

Results

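The phosphocreatine system was described here through 7 genes among the 54532 of the deposited table. They comprised the 4 creatine kinase genes, Ckmt1, Ckmt2, Ckm and Ckb, and 3 genes of creatine supply, Gatm, Gamt and Slc6a8. The genes were picked by symbol with their values in both groups already known, so their differences between groups are given as a description and without a test.

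Transcripts were sequenced from iCDC-P30, an immortalized line of cardiosphere-derived cells from the heart ventricle of the C57BL/6 mouse. Such cells grow out of heart explants, and the line is kept dividing by a human telomerase (hTERT) transgene that a lentivirus delivers and a CMV promoter drives. The methods of the study place the origin of the line in the ventricular epicardium of 6-week-old animals. Control cells (3 libraries) were at passage 30, and induced cells (3 libraries) were cells of the same passage given 5-azacytidine, an inhibitor of DNA methylation. Per the labels the drug was present at 10 µM for 3 days, and IMDM medium with 2% serum followed for 4 weeks, whereas the methods name another medium and a shorter time. Drug, serum and time in culture cannot be told apart. Both groups carried the transgene and the puromycin selection that followed it, and neither source says how many founding clones the line had or how long the sequenced control cells were cultured.

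Creatine kinases move a phosphate group between ATP and creatine, and the phosphocreatine so formed is a store from which ATP can be rebuilt quickly. Cells with high and uneven energy use, such as cardiac and skeletal muscle, neurons and some epithelia, hold the enzyme in cytosolic and mitochondrial forms, the mitochondrial form sitting between the inner and outer membranes where new ATP leaves the organelle. Creatine itself is made in a pair of steps, from arginine and glycine to guanidinoacetate and then to creatine with a methyl group from S-adenosylmethionine, or it is taken up from outside the cell by a sodium-dependent transporter.

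Libraries held 19041133 to 19823369 reads in genes, and 19591 to 20501 genes had at least 1 read. In every pair of libraries of a group the counts differed by more than sampling noise (chi-square per degree of freedom 2.56 to 8.91). The labels speak of separate samples but not of separate cultures, so p-values measure the spread between these samples, which may be technical. Levels are read counts scaled to a common library size by the TMM method and given as CPM, and levels of different genes are compared only as FPKM, which is also divided by gene length. Among all genes tested for a difference, 64.8% were called at an edgeR adjusted p under 0.05. The study names Tbx18 and Upk3b as genes of epicardial cells, retained in its cardiosphere-derived cells, and they are listed here with surface markers of the latter. Of these cardiosphere-derived cell markers, all 5 listed were tested, 3 called higher (Eng, Thy1 and Upk3b) and 2 lower (Ly6a and Tbx18). Their summed level was 816.4 to 826.9 CPM in control and 1493 to 1644 CPM in induced libraries, and most of that difference was Upk3b, at 254.0 and 942.1 CPM. Of 5 leukocyte markers, Ptprc, Cd52, Tyrobp and Itgam had 0 reads in all 6 libraries. The fifth, Laptm5, had 2, 1 and 4 reads in control replicates 1 to 3 and 0 in the induced libraries.

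Of the 7 genes, 5 had enough reads to enter the fit over all genes (14246 genes), while Ckm and Ckmt2 did not. Ckmt1 entered it through the induced libraries alone. By FPKM, the order in control cells was Slc6a8 (41.4 ± 0.738), Gamt (30.3 ± 0.578), Ckb (19.9 ± 1.74) and Gatm (1.33 ± 0.0700) (SD, n = 3), with Ckmt1, Ckm and Ckmt2 at 0 reads. In induced cells it was Slc6a8 (54.5 ± 0.357), Ckb (23.6 ± 1.51), Gamt (15.4 ± 1.37), Ckmt1 (9.54 ± 1.34) and Gatm (1.85 ± 0.139) (SD, n = 3). No neighbours in either order overlapped between libraries, and Ckb and Gamt had exchanged places. Slc6a8 lay above 91.0% of the tested genes by mean FPKM in control cells and Gatm above 24.2%.

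**Figure D1:**
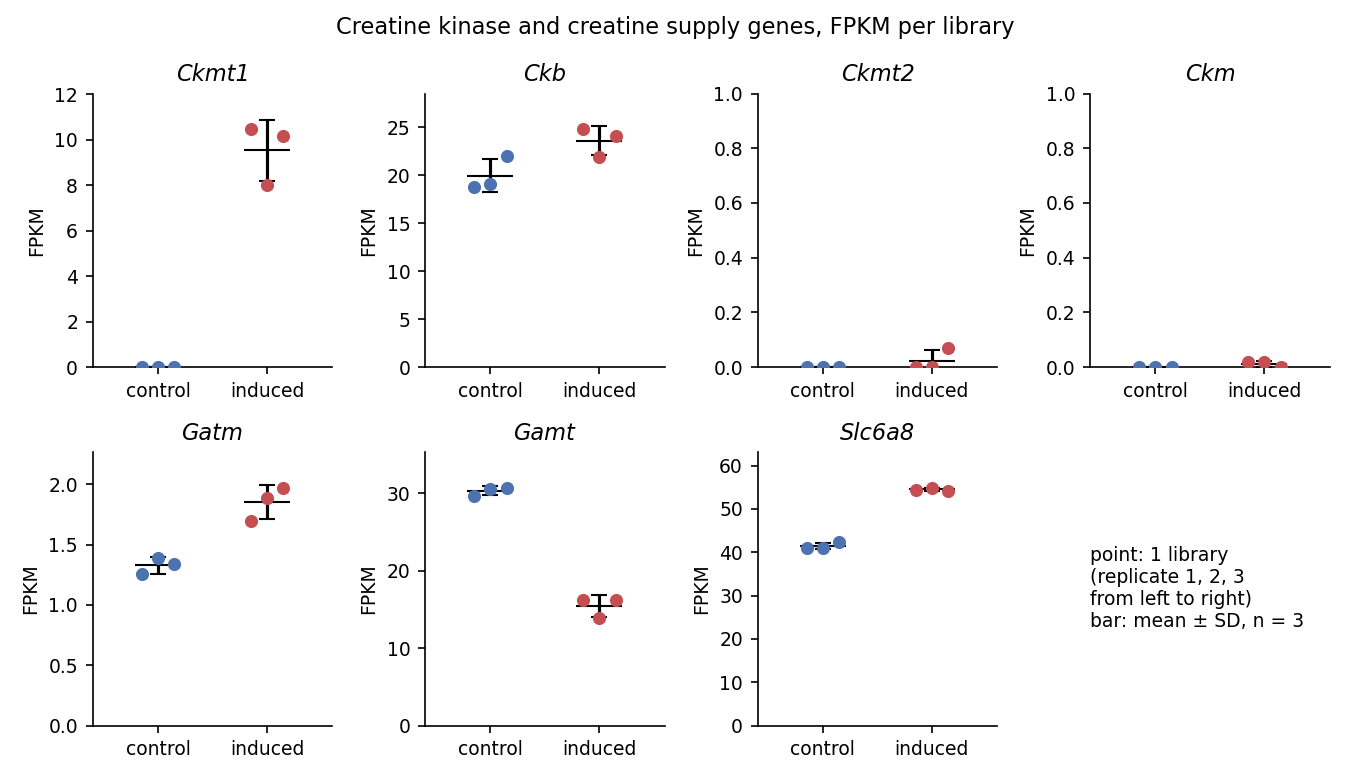
FPKM of each gene in each library, with a separate linear axis from 0 per gene. Points are the 3 control and 3 induced libraries and bars give mean ± SD. Ckmt1 was at 0 in the 3 control libraries and between 8.001 and 10.5 FPKM in the induced ones, and Gamt was lower in every induced library than in any control library.

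The mitochondrial creatine kinase Ckmt1 was absent from the reads of control cells and abundant in those of induced cells. Ckmt1 (ENSMUSG00000000308, chromosome 2, 121357714 to 121363737, plus strand) encodes the ubiquitous mitochondrial form, found in brain, gut and other epithelia more than in striated muscle. It had 0 reads in control replicates 1, 2 and 3, and 492, 381 and 484 reads in induced replicates 1, 2 and 3. The induced levels were 26.1, 20.04 and 25.4 CPM, so replicate 2 was the lowest and no induced library came near the control libraries. The mean was 23.9 ± 3.32 CPM (SD, n = 3). Against a limit of 3 counts summed over the control libraries (0.0506 CPM), this was at least 472-fold higher, or at least 8.88 on the log2 scale. Any 1 control library left out lowers that limit to between 8.29 and 8.30 on the log2 scale, because it rests on fewer reads. Such limits reflect counting error alone, as reads that carry no molecular identifier may be copies of 1 molecule.

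Among the 50 tested genes with 0 reads in every control library and at least 10 in every induced library, Ckmt1 had the highest CPM, followed by Xist (12.5 CPM). That set is defined by the pattern already known for Ckmt1 when it was chosen, so the rank is a description only. The spread of Ckmt1 among the induced libraries was 13.9% of the mean, where counting alone gives 4.70%. Its FPKM in induced cells lay above 65.3% of the tested genes. In the GENCODE M21 annotation 0.401% of its exon bases overlap another gene, Strc on the opposite strand. None of its stretches of 100 bases recurs in the transcripts of another gene (0%).

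The windows around the RefSeq starts of Ckmt1 are shown because the gene had reads in plenty in induced cells and none in control cells. They stand next to those of Ckb, with reads in all libraries, and Ckm, with almost none. Each runs 5′ to 3′ on the strand of the gene from 250 bases before the start to 50 after it (RefSeq, GRCm38.p6), and capitals mark CG pairs, the pairs at which mammalian DNA is methylated. Methylation was not analysed here. GENCODE M21 lists 10 starts for Ckmt1, 5 for Ckb, 4 for Gamt and 3 each for Gatm and Ckm, so the windows leave out annotated starts. The second Ckmt1 window and that of Ckm lie inside the span that the deposited table gives the gene.
Ckmt1 start 1 (chr2:121357526-121357825, plus strand): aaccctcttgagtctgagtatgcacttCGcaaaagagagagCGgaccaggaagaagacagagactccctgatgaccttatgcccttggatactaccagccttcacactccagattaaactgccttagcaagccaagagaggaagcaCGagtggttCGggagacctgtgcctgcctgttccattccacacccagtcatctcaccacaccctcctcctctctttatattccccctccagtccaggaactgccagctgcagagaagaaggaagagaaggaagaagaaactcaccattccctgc
Ckmt1 start 2 (chr2:121358360-121358659, plus strand): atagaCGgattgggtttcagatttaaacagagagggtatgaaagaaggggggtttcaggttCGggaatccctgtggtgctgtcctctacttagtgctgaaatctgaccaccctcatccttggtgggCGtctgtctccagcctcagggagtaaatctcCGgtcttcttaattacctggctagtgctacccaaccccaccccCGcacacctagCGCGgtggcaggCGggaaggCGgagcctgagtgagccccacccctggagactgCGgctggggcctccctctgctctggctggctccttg
Ckb (chr12:111672289-111672588, minus strand): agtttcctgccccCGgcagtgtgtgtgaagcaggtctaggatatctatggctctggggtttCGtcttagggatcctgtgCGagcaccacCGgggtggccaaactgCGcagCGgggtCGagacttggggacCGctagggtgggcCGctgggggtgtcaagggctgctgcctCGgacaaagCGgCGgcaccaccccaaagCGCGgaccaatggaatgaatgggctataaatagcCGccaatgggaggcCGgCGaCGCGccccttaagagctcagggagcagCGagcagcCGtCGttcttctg
Ckm (chr7:19410844-19411143, plus strand): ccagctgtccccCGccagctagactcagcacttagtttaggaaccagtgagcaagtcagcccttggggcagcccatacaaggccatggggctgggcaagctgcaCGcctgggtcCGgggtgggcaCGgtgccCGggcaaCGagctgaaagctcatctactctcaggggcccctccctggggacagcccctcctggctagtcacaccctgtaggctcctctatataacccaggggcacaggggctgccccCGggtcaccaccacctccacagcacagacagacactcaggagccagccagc
The first window of Ckmt1 held 4 CG pairs and the second 10, against 22 for Ckb and 7 for Ckm. Over all 32851 windows of 300 bases the median was 7, with quartiles of 3 and 20. The remaining windows held 22 CG pairs for Gatm, 14 for Gamt and 4 for Ckmt2, and no window of Slc6a8 was matched. Of the 4 genes with reads in all 6 libraries, the 3 with a window, Ckb, Gatm and Gamt, had 14 to 22 CG pairs, and Slc6a8 was not examined. The genes at 0 reads in control cells had 4 to 10, and of these Ckm and Ckmt2 had only 2 reads each in induced cells. The genes were chosen with their levels known, and a link of CG pairs with level was not tested. Counting reads per gene does not say from which start of Ckmt1 they came.

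**Figure D2:**
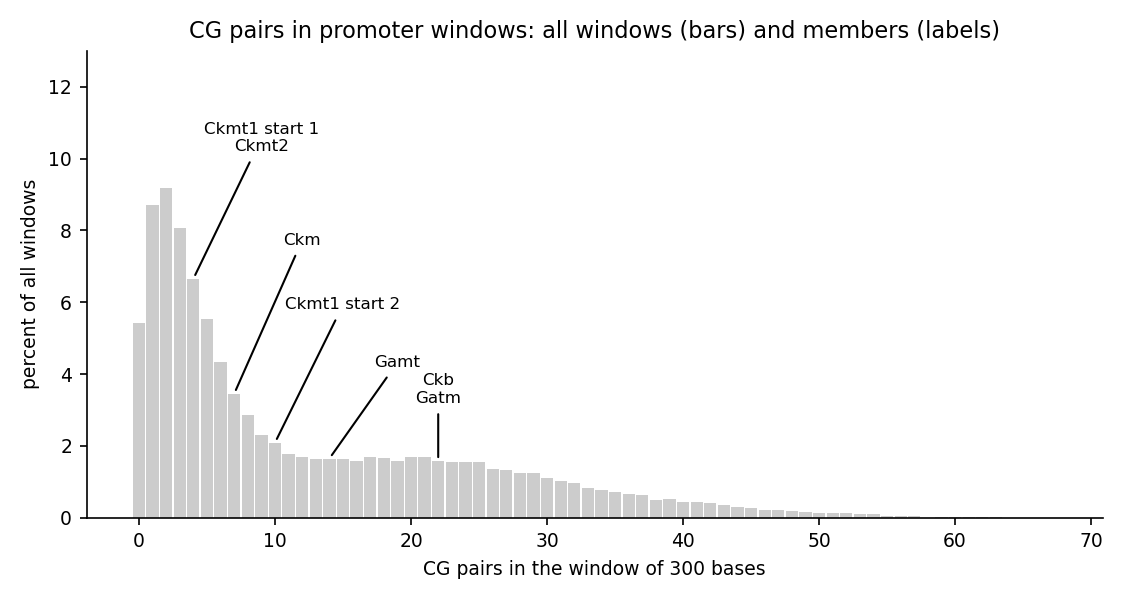
Percent of all 32851 RefSeq promoter windows (y axis) by number of CG pairs per 300 bases (x axis), with the windows of 6 of the 7 genes labelled. The windows of Ckmt1, Ckm and Ckmt2 lie between 4 and 10 CG pairs, and those of Gamt, Ckb and Gatm at 14 and 22.

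Short motifs were searched in the same windows on both strands. The letters TATAA, the core of a TATA box, were found in 24.9% of all windows. Counted from the start, they began at base -29 in Ckm and at base -28 in Ckb, and lay on the opposite strand from base -30 of the first Ckmt1 window. The letters CCAAT (37.4% of all windows) were found in Ckb, Gatm and Ckmt2, with 2 matches each, and in the second Ckmt1 window. The letters CANNTG (E-box, a palindrome counted once per place, 72.3% of all windows) were found 4 times in Ckmt2 and once each in Ckm, Gatm, Gamt and the first Ckmt1 window. The letters GGGCGG (35.7% of all windows) were found 4 times in Gamt and once in Ckmt2.

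Ckmt1 lies in a cluster of genes that did not move as a block. Within 100 kb on either side the table lists 15 genes, of which 8 were tested, 3 were called higher and 2 lower. A gene was called where its Benjamini-Hochberg adjusted p from the quasi-likelihood test of edgeR was under 0.05. Of all tested genes 64.8% were called, 32.6% higher and 32.2% lower, which is the share to read these counts against. Ppip5k1, an inositol pyrophosphate kinase, is transcribed away from Ckmt1 and starts 2318 bases upstream of it. It had 14.4, 14.8 and 16.6 CPM in control replicates 1 to 3 and 47.1, 51.3 and 46.6 CPM in induced replicates 1 to 3. The groups were far apart, and Ppip5k1 rose by 1.66 on the log2 scale (SE 0.07, edgeR adjusted p 7.97e-13).

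Strc, the gene of the inner-ear protein stereocilin, meets the end of Ckmt1 from the opposite strand. It had 0 reads in control cells and 22, 8 and 24 reads in induced replicates 1, 2 and 3, too few to be tested, and replicate 2 was again the lowest. Farther out, Map1a, a microtubule-associated protein, fell by 0.60 on the log2 scale (SE 0.05, edgeR adjusted p 3.54e-09), and Trp53bp1, a DNA repair factor, fell by 0.35 (edgeR adjusted p 2.94e-05, 15.04% of exon bases overlap Tubgcp4). Pdia3, a protein disulfide isomerase, rose by 0.16 (edgeR adjusted p 0.00291). Mfap1b rose by 0.98 (edgeR adjusted p 0.000254), but 56.7% of its 100-base stretches recur in other genes such as Mfap1a, so its count is uncertain. Its induced levels were 17.3, 19.3 and 36.0 CPM, and without induced replicate 3 the difference was 0.59 (edgeR adjusted p 0.000230). Catsper2, Serf2 and Hypk were not called (log2 differences 0.19, 0.02 and -0.11). Of the last 2, 65.4% and 52.0% of exon bases overlap other genes.

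**Figure D3:**
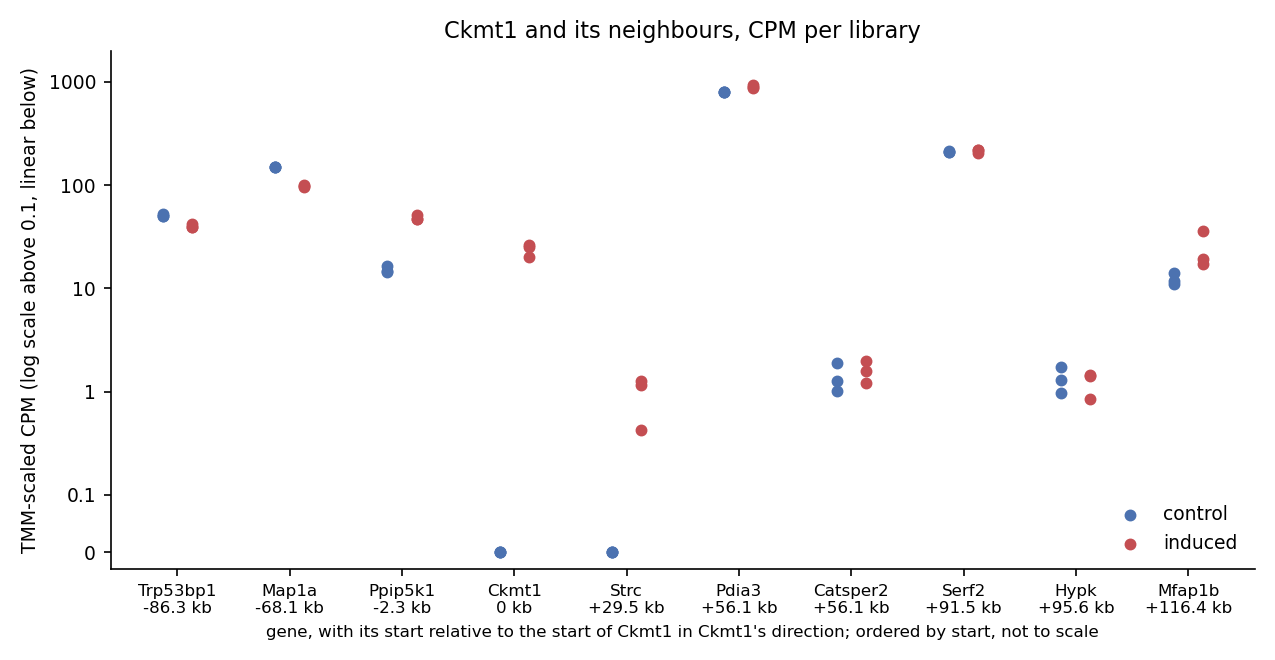
TMM-scaled CPM per library (y axis, logarithmic above 0.1 and linear below) of Ckmt1, of its tested neighbours within 100 kb and of Strc, ordered by start, with the distance of each start from that of Ckmt1 in kb. Ppip5k1, just upstream, and Strc and Ckmt1, at 0 in control libraries, were higher in all 3 induced libraries, while Map1a and Trp53bp1 were lower. Mfap1b was higher in all 3 as well, and Serf2, Catsper2 and Hypk overlapped between the groups.

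The cytosolic brain-type kinase Ckb was the main creatine kinase of both groups. Ckb (ENSMUSG00000001270, chromosome 12, 111669361 to 111672338, minus strand) had 55.0, 55.9 and 64.0 CPM in control replicates 1 to 3. In induced replicates 1 to 3 it had 71.8, 63.6 and 69.8 CPM. Control replicate 3 was above induced replicate 2, so the groups overlapped. The means were 58.3 ± 4.99 and 68.4 ± 4.28 CPM (SD, n = 3), a ratio of 1.17 and a log2 difference of 0.23 (SE 0.07). With each library left out in turn the difference lay between 0.19 and 0.31. Of its 100-base stretches 4.54% recur in a transcript of Gm12892. The spread of Ckb among control libraries was 8.55% of the mean, where counting alone gives 2.95%.

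Both kinases of striated muscle were close to the limit of detection. Ckm (ENSMUSG00000030399, chromosome 7, 19404776 to 19422841, plus strand), the cytosolic muscle form, had 0 reads in the control libraries and 1, 1 and 0 reads in induced replicates 1 to 3. Ckmt2 (ENSMUSG00000021622, chromosome 13, 91853387 to 91876885, minus strand), the mitochondrial form of heart and skeletal muscle, had 0 reads in the control libraries and 0, 0 and 2 reads in the induced ones. A count of 0 allows up to 0.150 to 0.153 CPM in a control library, and no fold is given because both groups are under 3 counts. No difference could be detected at such a depth. Of the exon bases of Ckm 15.5% overlap A930016O22Rik on the opposite strand, and of those of Ckmt2 5.65% overlap 1700119I11Rik.

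The makeup of creatine kinase transcripts therefore differed between the groups in the mitochondrial form. Ckb made up 100% of the summed FPKM of the 4 genes in each control library. In induced replicates 1 to 3 it made up 70.3%, 73.2% and 70.2%, and Ckmt1 29.7%, 26.8% and 29.6%. The mean share of Ckmt1 was 28.7 ± 1.67% (SD, n = 3) and that of Ckm and Ckmt2 was 0.0373 ± 0.0326% and 0.0685 ± 0.119%. Summed FPKM of the 4 genes was 18.8, 19.1 and 21.9 in control and 35.3, 29.9 and 34.3 in induced libraries, without overlap. In bulk RNA a change in the number of cells that use a gene and a change in RNA per cell cannot be told apart.

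**Figure D4:**
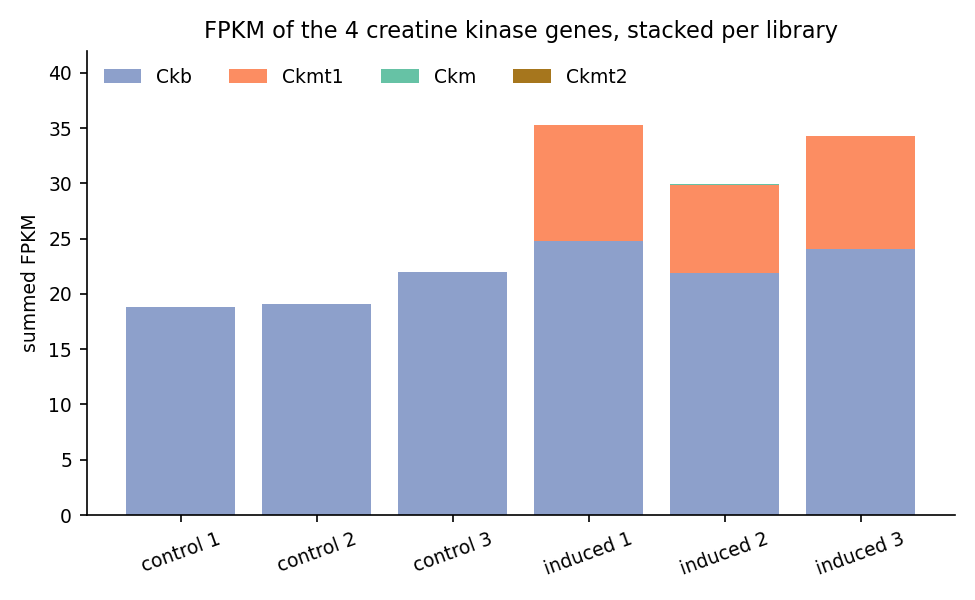
Stacked FPKM (y axis) of Ckb, Ckmt1, Ckm and Ckmt2 in each of the 6 libraries. Control bars hold Ckb alone and end between 18.8 and 21.9, and induced bars end between 29.9 and 35.3 with Ckmt1 as the upper part.

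Markers of other cell types that express these kinases were read beside them. Their calls, here and in the next paragraph, are to be read against the 64.8% of all tested genes called. Of 14 cardiomyocyte markers 5 were tested and 3 were called higher, and their summed level was 14.8 to 18.5 CPM in control and 67.2 to 71.9 CPM in induced libraries. Most of that was Tnnt2, cardiac troponin T, with 13.1 ± 1.62 and 58.2 ± 1.92 CPM (SD, n = 3). The others called higher were the atrial myosin light chain Myl7, with 0 reads in control cells and 34, 20 and 20 in induced replicates 1 to 3, and Cox6a2, a muscle subunit of cytochrome c oxidase, with 33 and 357 reads per group. Ryr2 had 1 and 29 reads and was not tested. Myh6, Pln, Nppa and Mb had 0 reads in control cells and 1, 1, 4 and 8 in induced cells. Tnni3 and Tnnc1 were tested and not called by edgeR, with 90 and 76 reads in control and 115 and 75 in induced cells. The libraries of Tnni3 did not overlap, at 1.45 to 1.62 CPM in control and 1.86 to 2.25 CPM in induced cells. Of the 5 tested cardiomyocyte markers DESeq2 called 3 and limma 4. Actc1, Myl2, Myl3 and Myh7, not tested, had 6, 2, 2 and 3 reads in control and 4, 0, 0 and 4 in induced cells. Of 12 skeletal muscle markers 3 were tested, of which 0 were called by edgeR, 0 had an unadjusted p under 0.05, and 0 were called by DESeq2 or limma. Their sum was 12.5 to 13.7 CPM in control libraries and 15.8, 23.6 and 11.2 CPM in induced replicates 1, 2 and 3. The highest of these was the library with the least Ckmt1, which had 123 reads of Acta1, 25 of Myh3, 19 of Myog and 14 of Myod1. None of these genes entered the fit, so the absence of calls does not cover them. Without induced replicate 2 the limit for the log2 difference of Ckmt1 was 8.998, against 8.88.

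Of 6 epithelial markers 4 were tested, 3 called higher and 1 lower, and their sum was 30.1 to 32.6 CPM in control and 39.9 to 49.4 CPM in induced libraries. The keratins Krt8 and Krt18 had 5 and 4 reads in control cells and 713 and 1022 reads in induced cells. Both entered the fit through the induced libraries alone, so they could be called only higher. Krt19, which made up most of the control sum, fell from 30.3 ± 1.06 to 12.8 ± 4.00 CPM (SD, n = 3; log2 difference -1.24, edgeR adjusted p 2.74e-07). Epcam had 1 read in each group and Cldn4 had 0 reads in all libraries. Of 6 neuronal markers 3 were tested, 1 called higher and 2 lower, and Snap25 had 0 reads. Their sum was 92.3 to 96.9 CPM in control and 32.2 to 37.1 CPM in induced libraries. Most of it was Tubb3, with 91.0 ± 2.62 and 29.8 ± 2.16 CPM (SD, n = 3). Map2 was called higher, with 2.04 and 4.18 CPM. Syt1, with 86 and 2 reads, entered the fit through the control libraries alone, so it could be called only lower. Smooth muscle markers summed to 1209 to 1259 CPM in control and 1042 to 1094 CPM in induced libraries, with 3 of 6 called higher and 2 lower. Within that sum Acta2 fell from 945.1 to 489.5 CPM and Cnn1 from 11.5 to 1.33 CPM. Mylk rose from 169.3 to 396.4 CPM, Smtn from 104.5 to 173.7 CPM and Myh11 from 1.01 to 7.05 CPM. Tagln was not called by edgeR, and limma called all 6. The 5 endothelial markers summed to at most 2.31 CPM. The part of any of these cell types in the level of Ckmt1 was not tested.

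Of the genes of creatine synthesis, the enzyme of the first step was low and higher in induced cells, and the enzyme of the second step was lower. Gatm (ENSMUSG00000027199, chromosome 2, 122594467 to 122611303, minus strand) encodes the mitochondrial amidinotransferase that makes guanidinoacetate and ornithine from arginine and glycine. It had 75, 83 and 81 reads in control replicates 1 to 3 and 96, 108 and 113 reads in induced replicates 1 to 3. The levels were 3.80, 4.23 and 4.06 CPM against 5.10, 5.68 and 5.92 CPM, without overlap. The log2 difference was 0.47 (SE 0.15), with counting alone giving a spread of 11.2% of the mean in control libraries.

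Gamt (ENSMUSG00000020150, chromosome 10, 80258151 to 80261012, minus strand) encodes the methyltransferase that turns guanidinoacetate into creatine. It had 43.2, 44.7 and 44.7 CPM in control replicates 1 to 3 and 23.4, 20.1 and 23.5 CPM in induced replicates 1 to 3. Every induced library was far below every control library, with a mean at 50.5% of the control mean and a log2 difference of -0.98 (SE 0.07). An absolute difference smaller than this was found for 82.4% of the tested genes. No exon base of Gamt overlaps another gene and no stretch of 100 bases recurs elsewhere (0% for both). The FPKM of Gamt was 22.8 ± 0.840 times that of Gatm in control cells and 8.38 ± 1.105 times in induced cells (SD, n = 3).

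The creatine transporter was the most abundant of the 7 by FPKM in each library. Slc6a8 (ENSMUSG00000019558, chromosome X, 73673150 to 73682502, plus strand) had 215.8, 215.8 and 221.9 CPM in control replicates 1 to 3. In induced replicates 1 to 3 it had 283.1, 286.9 and 282.8 CPM. The libraries of a group were close together, with an SD of 1.602% of the mean in control and 0.809% in induced cells, and the groups did not overlap. The ratio of means was 1.31 and the log2 difference 0.38 (SE 0.04), which fell between those of Ckb and Gatm. Slc6a8 had 1.37 ± 0.0243 times the FPKM of Gamt in control cells and 3.55 ± 0.355 times in induced cells (SD, n = 3). Libraries of the groups did not overlap for 4 of the 5 tested genes (Ckmt1, Gatm, Gamt and Slc6a8), as was so for 68.6% of all tested genes. Ckmt1 entered the fit through the induced libraries alone, so its lack of overlap was fixed in advance. The 7 genes were chosen with this contrast known.

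The surroundings of the supply genes were compared in the same way. Gatm lies 1230730 bases from Ckmt1 on chromosome 2, with 43 genes of the table between them. Within 100 kb of Gatm 3 of 6 listed genes were tested. AA467197 rose by 2.29 on the log2 scale on 11 reads in control and 53 in induced cells (SE 0.48, edgeR adjusted p 0.000375). It entered the fit through the induced libraries alone. Slc30a4, a zinc transporter, and Spata5l1 were not called (-0.09 and -0.17). Around Gamt 14 of 16 were tested, with 3 called higher and 5 lower, and around Slc6a8 5 of 8, with 1 higher and 2 lower. Around Ckb 5 of 10 were tested with 3 higher and 0 lower, and around Ckm and Ckmt2 7 of 9 and 1 of 2 tested genes were called. The call of Mark3 near Ckb was lost in 10 of 14 alternatives, DESeq2 and limma among them, and those of Cd3eap, Ercc1 and Fosb near Ckm in 5, 2 and 2. In all, 28 of 46 tested neighbours of the 7 genes were called, or 60.9%, a share near that of all genes.

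Genes that feed, branch from or work beside the phosphocreatine system were then counted. Across 7 lists, 39 of 56 genes were tested, 14 were called higher and 13 lower, or 69.2% against 64.8% of all tested genes, and the median log2 difference was 0.01 against -0.01. Neither the count nor the median set these lists apart from the rest of the genes.

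For the amino acids used by the first step, 4 of 11 tested genes rose and 4 fell. Among those that rose, Phgdh lost its call in 3 of 14 alternatives. Psat1, the aminotransferase of serine synthesis, fell from 135.4 ± 3.00 to 43.2 ± 1.73 CPM (SD, n = 3; log2 difference -1.65, edgeR adjusted p 1.13e-14). Shmt1, which makes glycine from serine in the cytosol, fell from 13.6 ± 0.826 to 4.76 ± 0.371 CPM (log2 difference -1.51, edgeR adjusted p 2.54e-09). The phosphatase of the same serine route, Psph, rose by 0.61 (edgeR adjusted p 1.30e-07, 10.4% of its exon bases overlap Cct6a). Serine and glycine genes thus moved in both directions.

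For the methyl group of the second step, 9 of 11 genes were tested, 4 rose and 2 fell. Ahcy, the hydrolase that removes the S-adenosylhomocysteine which Gamt leaves behind, fell from 131.2 ± 2.89 to 70.3 ± 4.13 CPM (SD, n = 3; log2 difference -0.90, edgeR adjusted p 7.15e-11), but 63.6% of its 100-base stretches recur in Gm4737 or Gm9826. Its relatives Ahcyl2 and Ahcyl1, which regulate ion transport and calcium release, rose by 1.18 and 0.30 (edgeR adjusted p 1.10e-10 and 1.83e-05).

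Of the genes listed for ornithine and arginine use, which include inhibitors of antizyme beside enzymes, 5 of 11 were tested, 2 rose and 2 fell. Nos3, which fell, was on 74 and 36 reads and lost its call in 7 alternatives. Azin2, an inhibitor of antizyme, fell by 0.49 on the log2 scale, and Odc1, the first enzyme of polyamine synthesis, and Oat, which breaks down ornithine, rose by 0.28 and 0.21 (edgeR adjusted p 3.00e-05, 5.79e-05 and 0.000504). The arginases were not tested, with 0 reads for Arg1 in all libraries and 9 and 2 reads for Arg2 in control and induced cells.

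Of the adenylate kinases, which exchange phosphate among adenine nucleotides, 6 of 9 were tested, 2 rose and 2 fell. Ak4 and Ak3, of the mitochondrial matrix, rose by 0.68 and 0.31 (edgeR adjusted p 1.06e-07 and 2.95e-05), and 22.9% of the exon bases of Ak3 overlap another gene.

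Of the carriers that pass ATP, ADP and phosphate across the mitochondrial membranes, 6 of 7 were tested, 1 rose and 2 fell. The phosphate carrier Slc25a3 fell from 541.7 ± 4.01 to 404.8 ± 5.00 CPM (SD, n = 3; log2 difference -0.42, edgeR adjusted p 6.14e-08), and the ADP/ATP carrier Slc25a5 fell by 0.43 (edgeR adjusted p 1.62e-06). Slc25a4, the carrier typical of heart and muscle, rose by 0.12 (edgeR adjusted p 0.0444), with overlap between groups. That call was lost without any 1 of control replicates 1, 2 and 3 or induced replicates 1 and 3, under library totals alone, with the replicate block and under limma (adjusted p over all alternatives 0.000161 to 0.164). The outer membrane channels Vdac1, Vdac2 and Vdac3 were not called (-0.04, -0.01 and -0.01). Slc25a31, with 0 control reads and 31 induced reads, was not tested.

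Of the Slc6 relatives of the creatine transporter only the taurine transporter Slc6a6 was tested among the 5 listed. It rose from 133.4 ± 2.26 to 207.3 ± 2.40 CPM (SD, n = 3; log2 difference 0.64, edgeR adjusted p 8.78e-10). Alpl, an alkaline phosphatase that can hydrolyse phosphocreatine in thermogenic fat, fell from 11.9 ± 0.829 to 4.83 ± 0.464 CPM (SD, n = 3; log2 difference -1.30, edgeR adjusted p 3.92e-08). Slc16a12, a carrier for creatine efflux, had 7 reads in each group and was not tested.

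**Figure D5:**
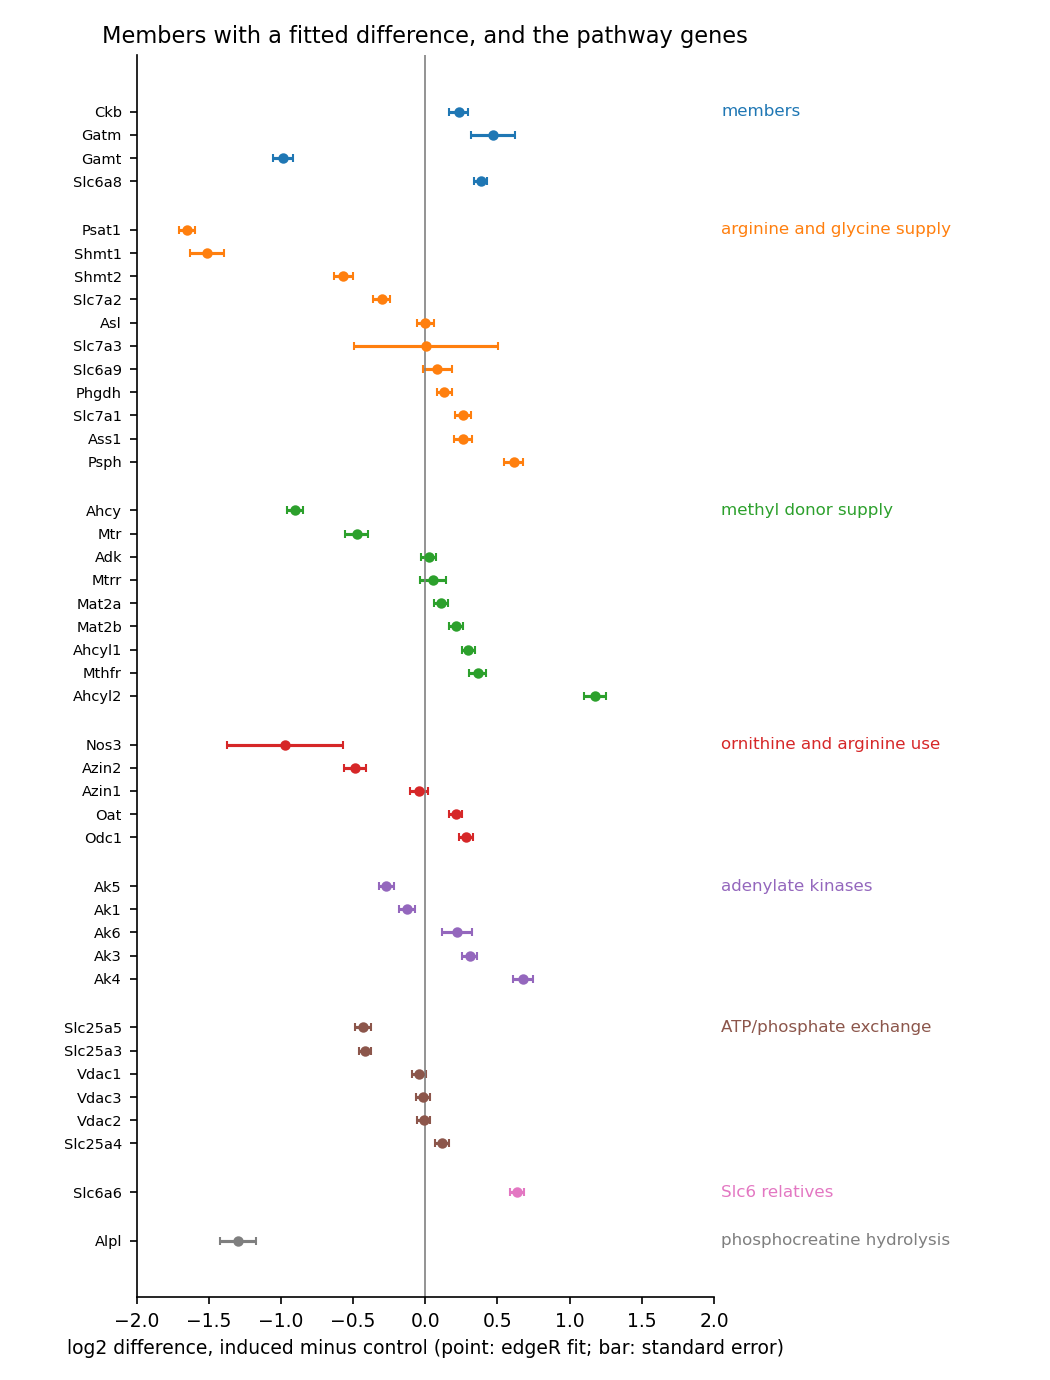
Log2 difference, induced minus control (x axis), from the edgeR fit for Ckb, Gatm, Gamt and Slc6a8 and for tested pathway genes, grouped by list, with 1 gene left out, with bars for the standard error. Gamt at -0.98 lies on the side of Psat1, Shmt1, Alpl and Ahcy, and Gatm and Slc6a8 at 0.47 and 0.38 on the side of Slc6a6. Ckmt1 is not drawn because it has 0 reads in control cells.

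The genes whose profile over the 6 libraries was nearest to that of Ckmt1, by Euclidean distance of log2(CPM + 0.5) centred per gene, were Cntn2 (0.344), Slc47a1 (0.410) and Scg2 (0.446). Cntn2, a neural cell adhesion molecule, went from 3.71 ± 0.406 to 212.6 ± 12.98 CPM, Slc47a1, an organic cation exporter, from 0.0846 ± 0.0592 to 23.7 ± 4.34 CPM and Scg2, a granin of secretory vesicles, from 0.894 ± 0.110 to 75.9 ± 2.41 CPM (SD, n = 3). The added 0.5 limits the distance of genes near 0. As Ckmt1 had 0 reads in control cells, it also sets the size of the step of Ckmt1 and so which genes come out nearest. For Slc6a8 the nearest were Arih2 (0.0346), Marveld1 (0.0499) and Mocs2 (0.0538), with log2 differences of 0.36, 0.38 and 0.37.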

How the data were processed

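The authors deposited 1 table that holds raw counts (whole numbers, not normalized) and FPKM for each gene in each library. FPKM there is the count per gene length and per unit of a depth of 0.980 to 1.03 times the total count. The submitters' processing notes name HISAT2 2.0.5, featureCounts 1.5.0-p3, DESeq2 1.16.1 and mm10, without their roles, and the methods name DESeq. The strand setting is not given in the sources used here, so reads of overlapping genes may have been mixed. Coordinates are those of the table, and for all 7 genes they equal GENCODE M21 (GRCm38). The authors' fold changes, p-values, normalized group means and Gene Ontology tables were not used.

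The fit used edgeR 4.0.16 under R 4.3.3. After filterByExpr, set to a minimum count of 10 and a total of 15, 14246 genes with 99.9% of all reads remained. TMM set the library scale, and induced and control cells were compared by the two-sided quasi-likelihood test, without covariates, with Benjamini-Hochberg adjustment over all tested genes at 0.05. Each standard error is the log2 difference divided by the root of F. Totals of 19041133 to 19823369 reads put the limit that a count of 0 allows, 3 reads, at 0.150 to 0.159 CPM. Genes named are the 7 members, up to 3 tested genes of each pathway list with the smallest p, Slc16a12 and Alpl, the tested neighbours within 100 kb of Ckmt1 and Gatm, and the 3 nearest profiles of Ckmt1 and Slc6a8. Arg1, Arg2, Slc25a31, Vdac1, Vdac2, Vdac3, Nos3, Phgdh, Mark3, Cd3eap, Ercc1, Fosb, Strc, Xist and the marker genes were named after their values were seen. A gene that the rule would name is not reported here. The members and lists were chosen with earlier results of these data known. In counts simulated for this comparison (14246 genes), 200 genes were changed in both directions, with the same biological variation for every gene. Of those kept by the filter, edgeR recovered 90.8% at a change of 1 and 73% at 0.5 on the log2 scale. It also called 5 unchanged genes. Far fewer genes were changed there than were called in the data, so recovery in the data may differ. As alternatives the fit was repeated with DESeq2 1.42.0, with limma 3.58.1 on log2(FPKM + 1) or log2(FPKM + 0.1), with the replicate number as a block, without a filter or with a stricter one, with library totals or median-ratio size factors for scaling, at a threshold of 0.01, with a 50 kb window, with raw counts for the kinase shares, and without each library in turn.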

Additional observations from a re-analysis of the deposited data

How the results depend on the processing

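The alternatives turned no sign among the differences of Ckb, Gatm, Gamt and Slc6a8, and the total number of calls over all genes and in each pathway list stayed within 1.5 times. Directions within a list moved more. Ornithine and arginine use had 4 higher and 1 lower without control replicate 2 or 3, with 7 genes tested in place of 5, and the mitochondrial carriers had 0 or 2 higher in place of 1. The number of genes called was 7783 to 9765 against 9225, and 8471 by DESeq2. The difference of Gatm was 0.29 on log2(FPKM + 1), where the pseudocount of 1 is close to its level, and that of Slc6a8 was 0.35 under library totals alone, against 0.47 and 0.38. The limit for Ckmt1 was 8.29 to 8.998 on the log2 scale with 1 library left out, against 8.88. Its share of creatine kinase transcripts was 25.8% by reads without length correction. Within 50 kb, 16 neighbours were called, since fewer genes lie there.

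Replicate numbers are shared between the groups, but after removal of group means the libraries with a common number correlated at only -0.03, -0.03 and 0.03, so the numbers were not taken to pair them. A fit with this replicate block called 9063 genes and lost the calls of Slc25a4 and Mark3. Of 85 tested pathway genes and neighbours, 13 crossed the threshold under at least 1 alternative, and 16 had a sign that turned, all of them among genes not called. At this depth Ckm and Ckmt2, with 2 reads each, could not be compared.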
